A study of Mus musculus with 30 samples.

Results

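The genes described are 10 complement components and receptors, *C1qa*, *C1qb*, *C1qc*, *C1ra*, *C3*, *C4b*, *C3ar1*, *C5ar1*, *Cfb* and *Cfp*. They were taken by name from a list, not by their values, and are 10 of the 45317 genes of the count table. All 10 passed the filter on low counts and were among the 11566 genes tested. RNA was sequenced from 8 populations of cells sorted from 4 mice aged 12 to 18 weeks that carried a glioma in the brain. All mice were C57BL6.CCR2RFP/WT, so 1 allele of *Ccr2* carried a red fluorescent protein in every group, and all had been implanted with GL261.BpalmGFP, a mouse glioma line with a membrane-anchored GFP that other cells can take up. Blood gave Ly6Chigh and Ly6Clow monocytes, and the brain gave glioma monocytes, CCR2high macrophages and CCR2low macrophages, each sorted as GFPpos or GFPneg. No mice without a tumor were sequenced, so blood and brain cells alike came from tumor-bearing animals. Every tumor came from the same cell line. By cell sorting, the paper found the infiltrating cells high in CD45 and CD11b to be missing from control brains without a tumor. The sort was gated on the level of CD45 and CD11b to set these cells apart from microglia, the resident macrophages of the brain. The titles carry the numbers 22, 23, 24 and 26, which were taken as the 4 mice. Blood monocytes came from mice 22, 23 and 24 (n = 3 per population), glioma monocytes from mice 22, 24 and 26 (n = 3) and macrophages from all 4 mice (n = 4), which gave 28 replicates in all.

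Complement is a cascade of blood and tissue proteins that marks targets for uptake and calls in immune cells. In the classical pathway C1q, a bundle of A, B and C chains, binds its target and turns on the proteases C1r and C1s, which cleave C4 and C2. All routes meet at the cleavage of C3, whose fragments coat the target, and the alternative pathway enlarges this step through factor B (*Cfb*) and properdin (*Cfp*), which holds its enzyme together. The small fragments C3a and C5a act on the receptors C3aR (*C3ar1*) and C5aR1 (*C5ar1*) of myeloid cells. In the brain C1q is known as a product of microglia and macrophages, while most complement proteins of the blood come from the liver.

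The C1q genes lie side by side on the minus strand of chromosome 4 in GRCm38 (GENCODE vM21). *C1qb* spans 136880129 to 136886187, *C1qc* 136889804 to 136893065 and *C1qa* 136895917 to 136898803, and each has 3 blocks of exons. *C4b* (34728380 to 34743882), *Cfb* (34856374 to 34862518) and *C3* (57203970 to 57228136) are on chromosome 17. The receptors are apart, *C3ar1* on chromosome 6 from 122847138 to 122856161 and *C5ar1* on chromosome 7 from 16246743 to 16259540. *C1ra* is on chromosome 6 (124512405 to 124523443) and *Cfp* on chromosome X (20925454 to 20931555). Because the C1q genes moved together in these data and *C3* did not move with them, the DNA just before their starts is shown for *C1qb*, *C1qc* and *C3* (RefSeq, GRCm38.p6, minus strand, 5′ to 3′). Capitals mark GAGGAA or its reverse complement, the core of a site for ETS factors, in *C1qb* and *C1qc*. In *C3* they mark TTGCNNAA, part of the letters of a C/EBP site. The stretches are chr4:136886201-136886450 for *C1qb*, chr4:136893066-136893164 for *C1qc*, where only the bases before both annotated starts are given, and chr17:57228137-57228386 for *C3*.
C1qb: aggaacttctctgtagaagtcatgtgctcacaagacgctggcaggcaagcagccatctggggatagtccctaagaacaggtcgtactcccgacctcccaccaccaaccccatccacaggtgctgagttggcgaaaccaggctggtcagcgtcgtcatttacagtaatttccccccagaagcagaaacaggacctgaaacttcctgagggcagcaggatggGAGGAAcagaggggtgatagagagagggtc
C1qc: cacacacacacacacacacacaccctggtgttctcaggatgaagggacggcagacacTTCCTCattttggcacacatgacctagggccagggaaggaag
C3: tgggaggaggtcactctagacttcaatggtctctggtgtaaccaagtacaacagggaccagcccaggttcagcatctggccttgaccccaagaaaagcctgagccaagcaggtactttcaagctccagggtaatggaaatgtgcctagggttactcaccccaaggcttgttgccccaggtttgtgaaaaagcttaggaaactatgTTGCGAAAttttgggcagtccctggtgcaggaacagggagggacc
The ETS core lay 37 bases before the GENCODE start of *C1qb* and 36 bases before that of *C1qc*, but 24 and 187 bases before their RefSeq starts. The C/EBP letters lay 37 bases before the start of *C3* in both. Of 32851 RefSeq promoters, 23.3% hold the ETS letters and 9.56% the C/EBP letters on either strand in the 250 bases before the start. Windows were given for 7 of the 10 genes, and 2 of them held the ETS letters. Letters of sites for the factors IRF, AP-1 and NF-kB and of a TATA box were searched too. In the full 250 bases of *C1qb*, *C1qc* and *C3*, those of IRF, AP-1 and TATA had 0 matches. The NF-kB letters had 2, 2 and 4 matches and thus did not set *C3* apart, and 45.8% of the RefSeq promoters hold them. Whether any of these letters bears on the levels of the genes was not tested. These matches are a description of letters and not of binding.

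Depth was similar to within a few-fold, with 1553616 to 5689644 counts on genes per replicate, so a gene at 0 could still hold 0.6 to 2.04 CPM (counts scaled to library size with TMM factors). The *Ly6c2* level followed the sort in blood, at 1176 CPM in Ly6Chigh and 123 CPM in Ly6Clow monocytes. *Ccr2*, on which blood cells were not sorted, was at 2060 and 562 CPM in these populations. All 8 listed microglia markers were detected in every brain replicate, and their summed level was 1770 to 3980 CPM in glioma monocytes, 2530 to 9480 CPM in macrophages and 145 to 285 CPM in blood. *Tmem119* and *P2ry12*, the defining ones, were highest in GFPneg CCR2low macrophages of mouse 24, at 2198 and 1767 CPM. Of 6 astrocyte markers, *Gfap*, *Aqp4*, *Slc1a2* and *Slc1a3* were at 0 in every blood replicate, and the sum of the 6 was 73.2 to 207 CPM in the brain. Neuronal markers stayed at or under 5.66 CPM. Ly6Clow monocytes differed from Ly6Chigh monocytes in the summed T and NK cell markers (749 to 1040 against 16.4 to 156 CPM) and dendritic cell markers (350 to 1770 against 99.6 to 209 CPM). The Ly6Clow library of mouse 23 stood apart with 13.3% spike-in counts, and GFPpos glioma monocytes of mouse 22 were the sum of 2 libraries.

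**Figure D1:**
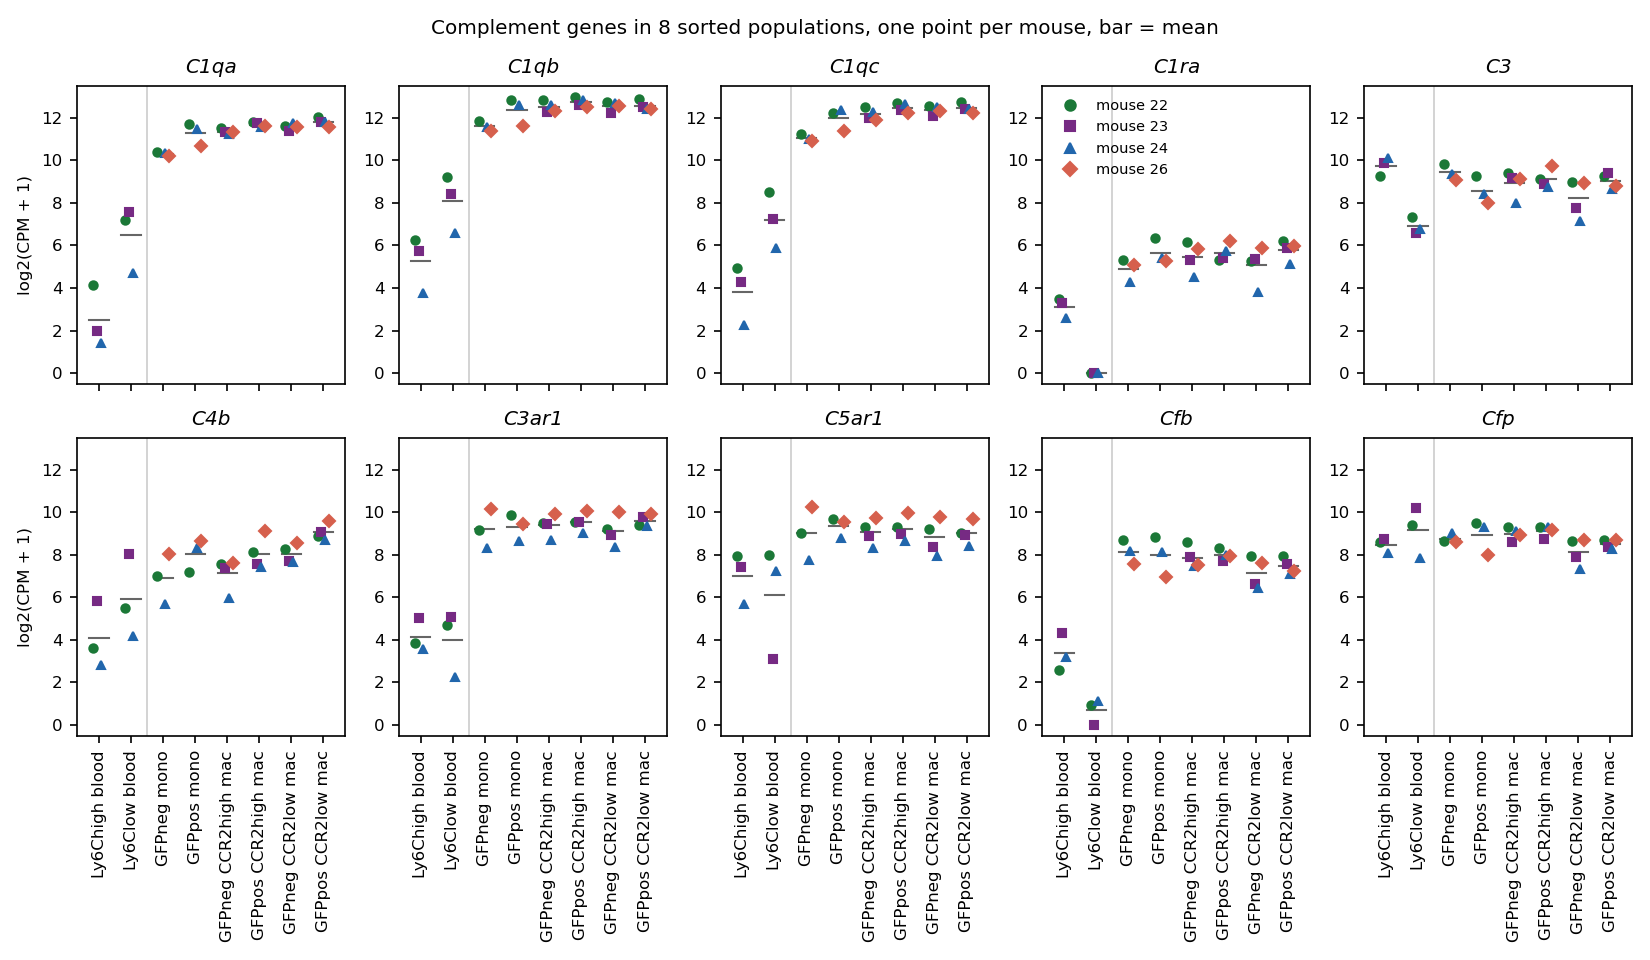
Level of each complement gene, as log2(CPM + 1), in the 8 sorted populations (mono, glioma monocytes; mac, macrophages), with one point per mouse and a bar at the mean of the points; the grey line divides blood from brain. The 3 C1q genes, *C1ra*, *C3ar1* and *Cfb* sit higher in all 22 brain replicates than in any of the 6 blood replicates, while the ranges of *C3* and *Cfp* overlap.

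All 3 C1q chains were far higher in the brain than in the blood. *C1qa*, the A chain, was at 16.9, 2.93 and 1.67 CPM in Ly6Chigh monocytes of mice 22, 23 and 24 and at 145, 189 and 25.5 CPM in Ly6Clow monocytes of the same mice. In GFPneg glioma monocytes it was at 1327, 1284 and 1187 CPM in mice 22, 24 and 26. In the brain the lowest replicate was thus above every blood replicate by several fold. GFPneg macrophages held 2392 to 2984 CPM in the CCR2high and 2703 to 3423 CPM in the CCR2low population. *C1qb*, the B chain, rose from 12.5 to 76.4 CPM in Ly6Chigh monocytes to 2681 to 3751 CPM in GFPneg glioma monocytes, and *C1qc*, the C chain, from 3.76 to 29.2 CPM to 1911 to 2445 CPM. Together these genes took 0.00196% to 0.0128% of the gene counts of a Ly6Chigh replicate and 0.532% to 1.82% of those of a brain replicate. 

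Against Ly6Chigh monocytes, the blood population that enters inflamed tissue, the log2 fold change in GFPneg glioma monocytes was 7.58 ± 0.67 (SE) for *C1qa*, 6.09 ± 0.57 for *C1qb* and 7.03 ± 0.61 for *C1qc*, with edgeR adjusted p-values of 8.93e-09, 2.79e-08 and 7.08e-09. In CCR2low macrophages the values were 8.87 ± 0.69, 7.04 ± 0.59 and 8.34 ± 0.64. These are differences between cells of blood and of brain in bulk RNA, where fewer cells of a type and less RNA per cell cannot be told apart. Only the brain was digested with enzymes, so tissue and digestion cannot be told apart either. The microglia marker sum moved with this difference, as did the T and NK cell sum (16.4 to 156 CPM in Ly6Chigh monocytes and 241 to 1500 CPM in brain replicates), and their part in the result was not tested.

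Against Ly6Chigh monocytes the fold changes of *C1ra* and *C4b* were smaller than those of the C1q genes. *C1ra*, a gene for the C1r protease, was at 5.02 to 10.1 CPM in Ly6Chigh monocytes, at 0 in all 3 Ly6Clow replicates, and at 18.2, 32.9 and 38.6 CPM in GFPneg glioma monocytes. All 22 brain replicates, at 12.95 to 79.7 CPM, were above all 6 blood replicates. The log2 fold change against Ly6Chigh monocytes was 1.93 ± 0.54 in GFPneg glioma monocytes (adjusted p = 0.0173), 2.57 ± 0.53 in CCR2high macrophages (adjusted p = 0.00108) and 2.24 ± 0.52 in CCR2low macrophages (adjusted p = 0.00307). Of the 75-base stretches of its transcript, 42.4% also occur in *C1rb* or *Gm18840*, so reads of these genes could not all be told apart, and *C1rb* itself held at most 1 count. The call in glioma monocytes was lost without Ly6Chigh replicate 23 (adjusted p = 0.0564) or 24 (0.11) or GFPneg replicate 22 (0.0786) or 26 (0.0523). *C4b*, the gene for C4, varied widely in blood, at 11.2, 56.8 and 6.06 CPM in Ly6Chigh monocytes. It was at 126, 49.8 and 266 CPM in GFPneg glioma monocytes, which overlapped that range, and at 202 to 372 CPM in CCR2low macrophages, which did not. The log2 fold change was 2.61 ± 0.81 in the monocytes (adjusted p = 0.031) and 3.502 ± 0.82 in the CCR2low macrophages (adjusted p = 0.0027). The call in glioma monocytes was lost when any of 4 of their 6 replicates was left out, Ly6Chigh replicate 22 (adjusted p = 0.137) or 24 (0.157) or GFPneg replicate 22 (0.0504) or 26 (0.18). In CCR2high macrophages (2.67 ± 0.79, adjusted p = 0.0178) it was lost without Ly6Chigh replicate 22 (0.0948) or 24 (0.11). *C4b* shares 23.5% of its 75-base stretches with *C4a*, which held at most 4 counts.

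*C3*, the gene for the central component, did not follow C1q. It was at 614, 947 and 1112 CPM in Ly6Chigh monocytes and at 917, 665 and 543 CPM in GFPneg glioma monocytes, and these ranges overlapped (log2 fold change -0.33 ± 0.42, adjusted p = 0.725). In GFPneg CCR2low macrophages it was at 508, 213, 143 and 489 CPM, below every Ly6Chigh replicate, and here it fell by 1.40 on the log2 scale (SE 0.39, adjusted p = 0.0117). Without Ly6Chigh replicate 24 the change was -1.21 (adjusted p = 0.07). With scaling by the spike-ins it was -1.41 and was not called either (adjusted p = 0.505). Over all brain populations against both blood populations the difference was 0.60 ± 0.25 (adjusted p = 0.056), and the test of DESeq2 put it past the threshold (0.65, adjusted p = 0.0215). *Cfp*, the gene for properdin, was at 383 to 526 CPM in GFPneg glioma monocytes and 271 to 432 CPM in Ly6Chigh monocytes, and none of its 3 comparisons with Ly6Chigh monocytes passed the test (log2 fold changes -0.24 to 0.52). *Cfb*, the gene for factor B, behaved otherwise. It was at 5.06, 19.3 and 8.15 CPM in Ly6Chigh monocytes and at 415, 293 and 187 CPM in GFPneg glioma monocytes, with no overlap. Its log2 fold change was 4.81 ± 0.58 (adjusted p = 1.28e-06), against 4.53 ± 0.56 in CCR2high and 3.86 ± 0.55 in CCR2low macrophages. Of its exon length, 79.5% is also annotated as *Gm20547*, a gene at 0 in the table, so many reads of *Cfb* may have been set aside as ambiguous and its absolute level is uncertain.

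The receptors rose in different degrees. *C3ar1* was at 13.48, 31.6 and 10.9 CPM in Ly6Chigh monocytes and at 25, 32.4 and 3.85 CPM in Ly6Clow monocytes. In GFPneg glioma monocytes it was at 582.4, 320 and 1131 CPM, and the lowest of the 22 brain replicates was above the highest of the 6 blood replicates. The log2 fold change was 5.21 ± 0.64 (adjusted p = 1.69e-06), and in CCR2high and CCR2low macrophages it was 5.26 ± 0.63 and 5.06 ± 0.62. *C5ar1* started higher, at 245, 172 and 49.96 CPM in Ly6Chigh monocytes, and was at 514, 218 and 1207 CPM in GFPneg glioma monocytes, where the ranges overlapped. Its fold changes of 2.06 ± 0.75, 1.87 ± 0.71 and 1.71 ± 0.71 in the 3 GFPneg brain populations did not pass the test (adjusted p = 0.0686, 0.0698 and 0.0915), although neither macrophage population, at 246 to 871 CPM, overlapped Ly6Chigh monocytes. With mouse as a block in the fit, the change in CCR2high macrophages was 1.67 and was called (adjusted p = 0.0308), and the test of DESeq2 called all 3 (adjusted p = 0.022, 0.0215 and 0.0329). Over all brain against both blood populations *C5ar1* was called in the main fit, at 2.02 ± 0.47 (adjusted p = 0.00111).

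**Figure D2:**
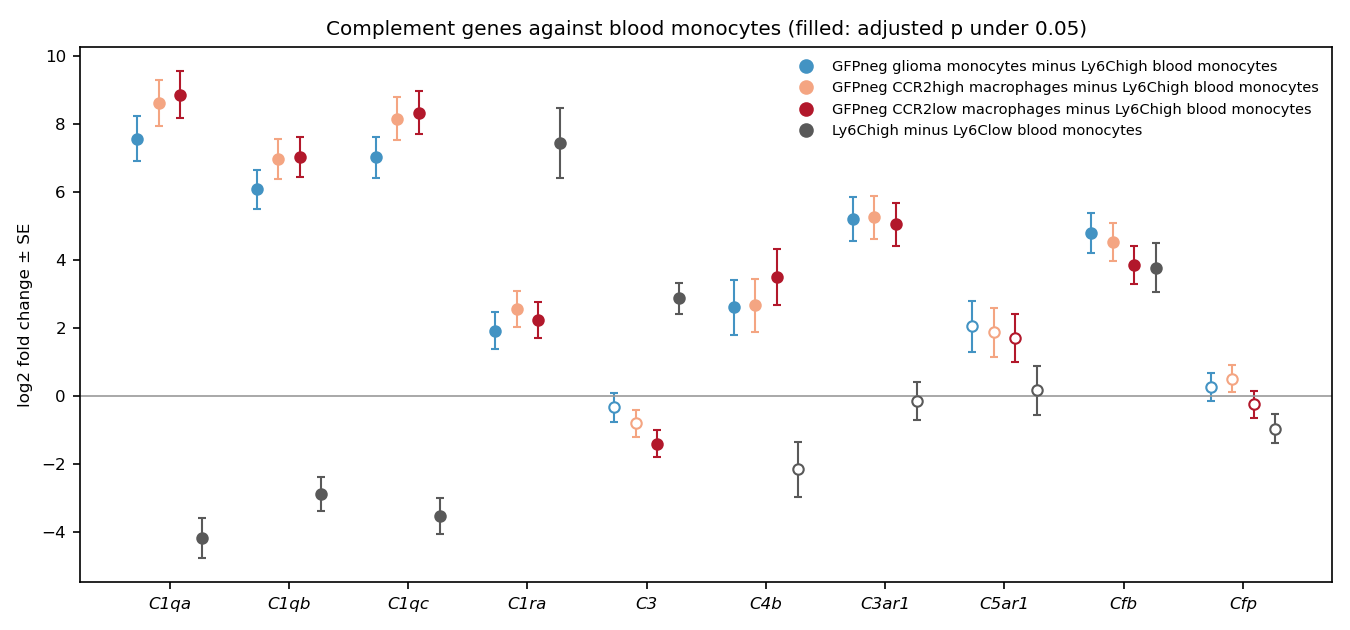
Fitted log2 fold change of each complement gene, with its standard error, in the 3 GFPneg brain populations against Ly6Chigh blood monocytes and in Ly6Chigh against Ly6Clow blood monocytes; filled points have an adjusted p under 0.05. The C1q genes lie between 6.09 and 8.87 in brain cells and below 0 in the blood comparison, and *C3* lies at 2.87 in the blood comparison and between -1.40 and -0.33 in brain cells.

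Counted over the list, 8 of 10 genes were called higher in the mean of the brain populations than in that of the blood populations. In the same contrast 0 were called lower. The shares of all tested genes were 25.8% and 13.8% (39.5% in either direction). Ranges that did not overlap between brain and blood were found for 6 of the 10 and for 6.33% of all genes. Those not called were *C3* and *Cfp*. Against Ly6Chigh monocytes, 7 of 10 were higher in GFPneg glioma monocytes (11.1% of all genes), in CCR2high macrophages (12.7%) and in CCR2low macrophages (14.1%), namely the 3 C1q genes, *C1ra*, *C4b*, *C3ar1* and *Cfb* in each. The median log2 fold change of the 10 genes was 3.71, 3.60 and 3.68 in these comparisons, which share the Ly6Chigh replicates, and that of all genes was 0.12, 0.15 and 0.17. *C3* in CCR2low macrophages was the 1 gene called lower (6.09% of all genes); in glioma monocytes and CCR2high macrophages 0 were, against 2.68% and 5.14%. Ranges apart from Ly6Chigh monocytes were seen for 6, 8 and 9 of the 10 genes and for 35.6%, 35.7% and 35.3% of all genes.

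The blood populations differed from each other in both directions. The C1q genes were higher in Ly6Clow than in Ly6Chigh monocytes, in every mouse, with fold changes (Ly6Chigh minus Ly6Clow) of -4.17 ± 0.59 for *C1qa*, -2.89 ± 0.50 for *C1qb* and -3.53 ± 0.53 for *C1qc* (adjusted p = 0.00011, 0.000898 and 0.000195). *C3* went the other way, at 160, 95.2 and 109 CPM in Ly6Clow monocytes of mice 22, 23 and 24 and 614 to 1112 CPM in Ly6Chigh monocytes (2.87 ± 0.45, adjusted p = 0.000343). *C1ra*, at 0 in Ly6Clow monocytes, was at least 6.91-fold higher in Ly6Chigh monocytes (mean over the floor of 3 counts per library), and *Cfb*, with 6 counts in all 3 Ly6Clow replicates together, was higher by a ratio of 13.2 (95% counting interval 5.81 to 37.0). Both were called (adjusted p = 0.00011 and 0.0023). In all, 3 of 10 genes were higher in Ly6Chigh monocytes (1.96% of all genes) and 3 were lower (3.65%; 5.61% in either direction). The same 6 genes had ranges that did not overlap, as had 17.8% of all genes. *C4b* was at 44.8, 260 and 17.5 CPM in Ly6Clow monocytes, overlapping Ly6Chigh monocytes, but higher in all 3 mice. The change of -2.16 ± 0.80 was not called (adjusted p = 0.11), and with mouse as a block it was -2.05 and was called (adjusted p = 0.0434). *Cfp* (-0.95 ± 0.42, adjusted p = 0.178), *C3ar1* (-0.14 ± 0.57) and *C5ar1* (0.17 ± 0.72) were not called. The calls in blood rested on the spread shared with the brain populations: in a fit of the 6 blood replicates alone, 0 of 10 genes were called, with adjusted p from 0.138 for *C3* to 0.612 for *Cfb* among those 6, and 0 of all genes were, against 649 in the fit over all populations. Scaled by the spike-ins, which moved the median of all genes to 1.69, the changes of *C1qa*, *C1qb* and *C1qc* were -1.57, -0.90 and -1.65 and were not called (adjusted p = 0.242, 0.37 and 0.241), while *C1ra*, *C3* and *Cfb* were. Under that scaling *C4b* (0.56), *Cfp* (1.58) and *C3ar1* (2.31) changed sign, and none of them was called. The T and NK cell and dendritic cell marker sums differed between these populations in every replicate, and their part in these results was not tested.

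Compared per kilobase of exon, the C1q genes had the highest levels of the list in the brain. In GFPneg CCR2high macrophages *C1qb* was at 5400 ± 974 CPM per kilobase (SD, n = 4), *C1qa* at 2520 ± 243 and *C1qc* at 2430 ± 457. The ranges of *C1qa* and *C1qc* overlapped, but this rests on the length taken for *C1qc*, 1931 bases of merged exons. On a single transcript of 1203 bases, a length tried after the values were seen, *C1qc* was at 3904 ± 732.8, above the range of *C1qa* and overlapping that of *C1qb* (4551 to 6640). *Cfp* followed at 298 ± 61, *C5ar1* at 221 ± 88.9, *C3ar1* at 163 ± 53.8, *C3* at 99.7 ± 35 and *Cfb* at 87.1 ± 34.8, with overlap between neighbors in this order. The place of *Cfb* is uncertain, because 79.5% of the exon length it was divided by is also annotated as *Gm20547*. Reads there may have been set aside as ambiguous, so its level may be too low. *C4b* (26.8 ± 10.9) and *C1ra* (15.7 ± 7.02) were lowest, and their ranges overlapped. In Ly6Chigh monocytes the order was another, with *Cfp* at 208 ± 47.6 and *C3* at 173 ± 49.3 (n = 3) above *C5ar1* at 60.5 ± 38.3 and *C1qb* at 43.2 ± 29.6. Per kilobase of merged exons, *C1qb* made up 44.3% to 57.6% of the 3 chains over the 22 brain replicates, *C1qa* 21.3% to 30.9% and *C1qc* 20.2% to 25.5%. On the single transcripts the shares were 38.5% to 51% for *C1qb*, 18.9% to 26.9% for *C1qa* and 28.9% to 35.4% for *C1qc*. In Ly6Chigh monocytes the share of *C1qb* was 69.1% to 79.7%, on 60 to 136 counts of *C1qb* per replicate.

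Inside the brain the question was whether monocytes differ from macrophages, CCR2high from CCR2low macrophages, and cells that had taken up tumor membrane from those that had not. In none of the 9 single comparisons within the brain was any of the 10 genes called by edgeR over all populations, and DESeq2 called none either. When each fit held just the populations compared, *C1qa* and *C1qc* were called in GFPneg CCR2high macrophages (adjusted p = 0.0224 and 0.0365) and *C1qa*, *C1qb* and *C1qc* in CCR2low macrophages (adjusted p = 0.00726, 0.0454 and 0.0105) against glioma monocytes. No alternative, these smaller fits among them, called more than 109 of all genes for the CCR2high or 333 for the CCR2low macrophages. In the fit over all populations, at most 1.21% of all genes were called in a comparison within the brain. This was GFPneg CCR2low macrophages against GFPneg glioma monocytes, with 1.06% lower in the macrophages. For GFPneg CCR2high macrophages against the same monocytes the share was 0.182%. The corresponding shares with GFPpos cells were 0.164% and 0.0173%. The CCR2 comparisons and the GFP comparisons called 0% of all genes. At an unadjusted p under 0.05 there were 5 members for GFPneg CCR2low macrophages against glioma monocytes (8.46% of all genes), 2 for CCR2high macrophages against them (5.38%), 1 for CCR2low against CCR2high macrophages (2.39%) and 2 for GFP in monocytes (6.39%), and 0 in the other 5 (0.597% to 6.62%).

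The C1q genes were lowest in glioma monocytes of the GFPneg sort. *C1qc* was at 1911 to 2445 CPM there and at 3855 to 5801 CPM in GFPneg CCR2high macrophages, with no overlap (1.13 ± 0.44, adjusted p = 0.645). *C1qa* and *C1qb* did not overlap either (1.05 ± 0.46 and 0.89 ± 0.44). Ranges that did not overlap were seen for 3 of the 10 genes and for 11.7% of all genes in this comparison; against CCR2low macrophages they were the 3 C1q genes and *C3*, beside 13.8% of all genes. In GFPpos cells the same differences were 0.32 ± 0.45, 0.31 ± 0.43 and 0.43 ± 0.43, and all 3 genes overlapped, as did the other 7 (5.7% of all genes did not). Averaged over both CCR2 levels and both GFP states, macrophages were above monocytes by 0.78 ± 0.30 for *C1qa*, 0.57 ± 0.28 for *C1qb* and 0.82 ± 0.28 for *C1qc* (95% interval of the last 0.24 to 1.39), and none was called (adjusted p = 0.245, 0.465 and 0.175; 2.38% of all genes were). This average was added after the values were seen. When the fit held only the brain populations, all 3 were called, at 0.79, 0.58 and 0.83 (adjusted p = 0.000385, 0.0301 and 0.00134), and the count over all genes went from 275 to 529. Within single mice, *C1qa* and *C1qc* were higher in macrophages in 12 of 12 pairs from 3 mice, as were 1.31% of all genes, and *C1qb* in 11 of 12. The microglia markers were also higher in macrophages (median sum 4030 against 2850 CPM), and their part in this difference was not tested. Over the 22 brain replicates, which share mice, the correlation of log2 CPM with the log2 marker sum was 0.57 for *C1qa*, 0.43 for *C1qb* and 0.57 for *C1qc*, and -0.69 for *C3*.

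*C4b* had the most regular pattern with GFP. It was at 126, 49.8 and 266 CPM in GFPneg and 146, 319 and 405 CPM in GFPpos glioma monocytes of mice 22, 24 and 26. In CCR2low macrophages of mice 22, 23, 24 and 26 it was at 306, 211, 202 and 372 CPM without and 471, 543, 422 and 763 CPM with GFP, and these ranges did not overlap (2.91% of all genes). In CCR2high macrophages it was at 189, 166, 61.7 and 194 CPM without and 282, 188, 169 and 561 CPM with GFP. GFPpos cells were thus higher in 11 of 11 pairs from the same mouse, which held for 0.432% of all genes, with a median log2 ratio of 1.03 and a lowest of 0.17. Averaged over the 3 cell types the difference was 0.99 ± 0.40 (95% interval 0.172 to 1.805, unadjusted p = 0.0196 in edgeR), and after adjustment over all genes p was 1, or 0.278 with mouse as a block. In CCR2low macrophages the T and NK cell marker sum was 241 to 642 CPM with and 772 to 1500 CPM without GFP, and the neutrophil sum was lower with GFP in 4 of 4 mice. Over all 11 pairs these sums were lower with GFP in 9 and 6. The astrocyte marker sum was at 125 to 205 CPM with and 73.2 to 114 CPM without GFP in glioma monocytes. It was at 92.9 to 180 against 87.7 to 139 CPM in CCR2high macrophages, and at 138 to 207 against 113 to 151 CPM in CCR2low macrophages. The part of these marker sums in the result was not tested. *C4b* was also higher in CCR2low than in CCR2high macrophages in 8 of 8 pairs (1.25% of all genes), by 0.85 ± 0.46 on average (not called). Among the 10 genes only *C4b* had ranges apart between GFPneg CCR2low and CCR2high macrophages (3.13% of all genes) and between GFPpos CCR2low macrophages and glioma monocytes (8.08%). Between GFPpos and GFPneg glioma monocytes the ranges of *C1qa* and *C1qc* did not overlap (13.6% of all genes), and in CCR2high macrophages those of *C1qa* did not (1.62%). For the other genes GFPpos cells were higher in 5 to 10 of 11 pairs. Their average differences ran from 0.01 for *C3* to 0.54 for *C1qa*. Like that of *C4b*, the average difference of *C1qa* had an unadjusted p under 0.05 in edgeR, as had 4.1% of all genes. It was not called. In tests of a difference in GFP effect between cell types (interaction terms), edgeR and DESeq2 called 0 of 10 genes, and edgeR called 0% of all genes. At an unadjusted p under 0.05 there was 1, *C3*, whose GFP difference was -0.81 ± 0.42 in glioma monocytes and 0.66 ± 0.37 in CCR2low macrophages. The difference between these was 1.46 (95% interval 0.31 to 2.61, unadjusted p = 0.0148 and adjusted p = 1 in edgeR), and 3.41% of all genes were under 0.05.

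*Cfp* was lower in CCR2low than in CCR2high macrophages in 8 of 8 pairs, as were 2.35% of all genes. In the same 8 pairs the dendritic cell marker sum was lower (12.7 to 49.5 against 40.3 to 230 CPM) and the microglia sum higher (3850 to 9480 against 2530 to 4920 CPM) in CCR2low macrophages, and their part was not tested. GFPneg CCR2high macrophages of mice 22, 23, 24 and 26 held 639, 390, 558 and 484 CPM and CCR2low macrophages 400, 240, 163 and 419 CPM. With GFP the values were 633, 429, 630 and 569 CPM against 421, 333, 306 and 412 CPM, with no overlap (2.68% of all genes). The average difference fell by 0.69 on the log2 scale (SE 0.26, unadjusted p = 0.0117 in edgeR) and was not called (adjusted p = 1, or 0.525 with mouse as a block). For this average, 3.59% of all genes had an unadjusted p under 0.05. *Cfb*, the other factor of the alternative pathway, was lower in CCR2low macrophages in 7 of 8 pairs (-0.59 ± 0.29, not called), and *C5ar1* in 7 of 8 (-0.20 ± 0.44). These averages, too, were added after the values were seen.

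**Figure D3:**
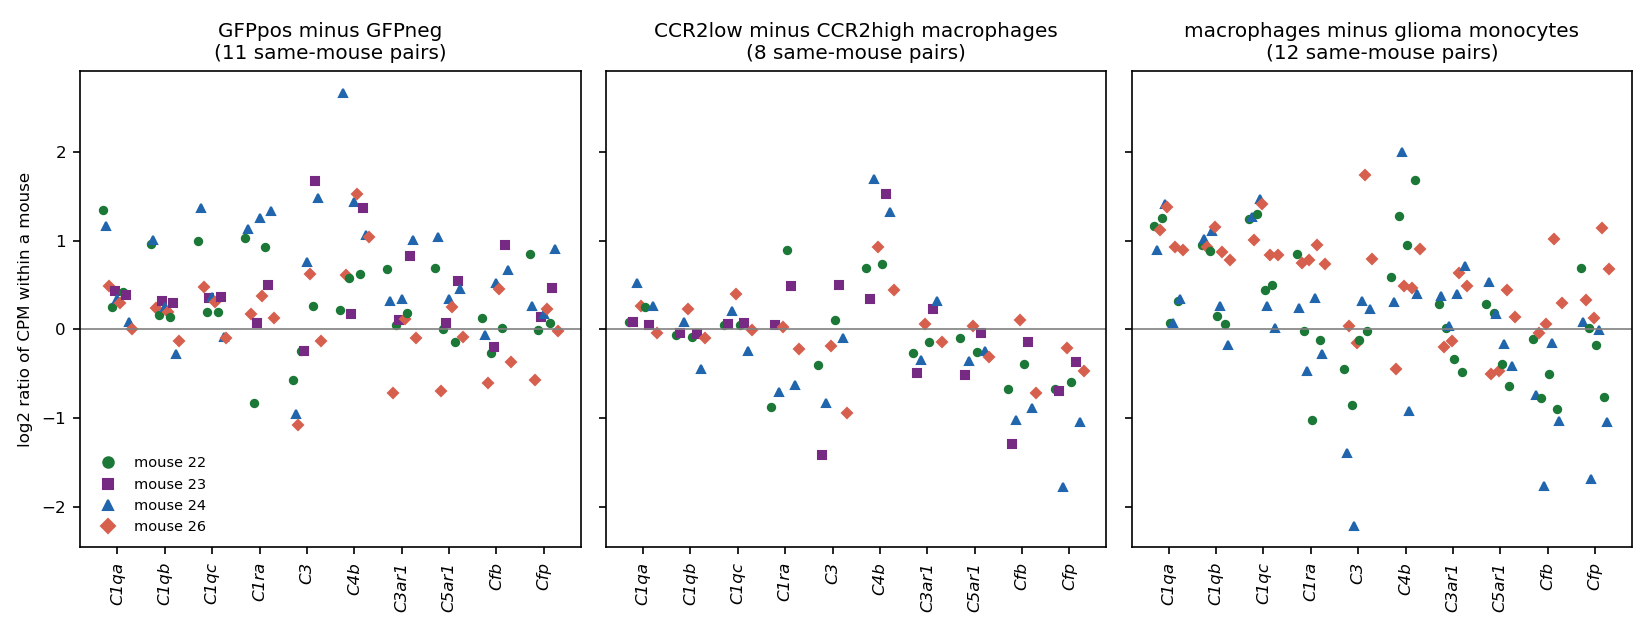
Log2 ratio of CPM within a mouse for each complement gene, for GFPpos against GFPneg cells (11 pairs), CCR2low against CCR2high macrophages (8 pairs) and macrophages against glioma monocytes (12 pairs); colors and shapes give the mouse. *C4b* lies above 0 in all pairs of the first and second comparisons, *Cfp* below 0 in all pairs of the second, and *C1qa* and *C1qc* above 0 in all pairs of the third.

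The receptors varied more between mice than between macrophage populations. In the 4 macrophage populations of mouse 26 *C3ar1* was at 966 to 1069 CPM and *C5ar1* at 821 to 1016 CPM. The 12 macrophage replicates of the other mice reached at most 876 and 632 CPM, so all 4 replicates of mouse 26 were above all others for both genes, as they were for 3.85% of all genes. For mice 22, 23 and 24 the corresponding shares of genes were 0.182%, 0.138% and 0.674%, and none of the 10 genes was among them. Mouse 24 had the lowest medians, 472 CPM for *C3ar1* and 327 CPM for *C5ar1*, and the highest microglia marker sums (4650 to 9480 CPM against 2530 to 5020 CPM in the other 3 mice), and the part of these markers was not tested. Each mouse is 1 animal, so no cause of a difference between mice can be told apart. The receptors varied together, with a correlation of log2 CPM of 0.90 over the 22 brain replicates. The C1q genes varied together too, at 0.90 to 0.96 between pairs of chains, but the correlation of *C1qa* with *C3ar1* was 0.13. *C3* and *Cfb* had a correlation of 0.78.

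**Figure D4:**
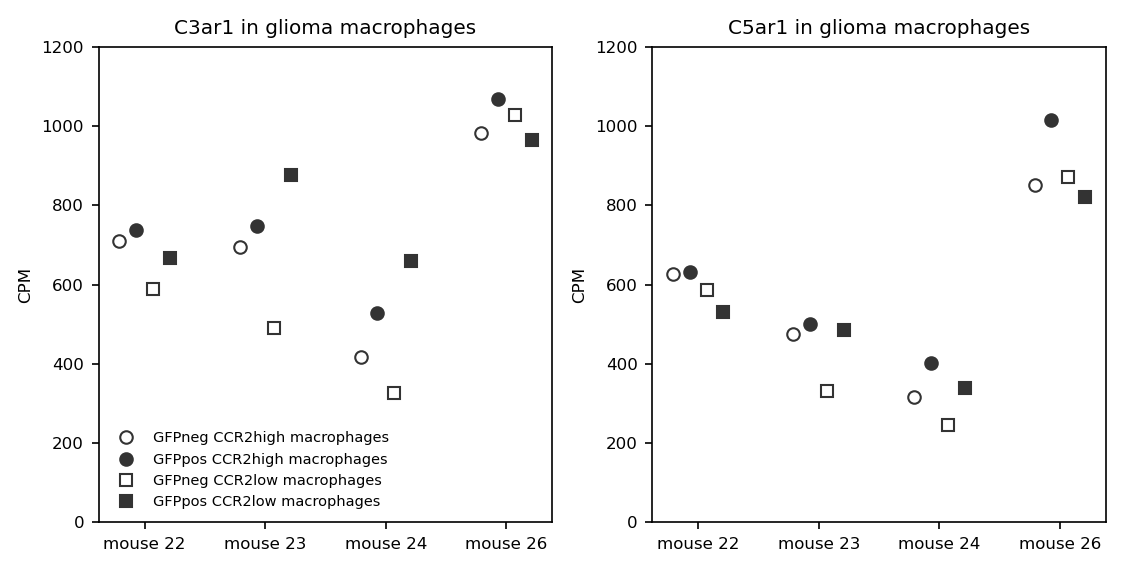
Level of *C3ar1* and *C5ar1* (CPM, linear axis) in the 4 macrophage populations of each mouse; open symbols are GFPneg and filled symbols GFPpos cells, circles CCR2high and squares CCR2low macrophages. All 4 symbols of mouse 26 lie above those of the other mice for both receptors.

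The rest of the complement system was read from a list of 43 further genes, of which 42 were in the table and 24 passed the filter. Against the mean of the blood populations, 10 of the 24 were called higher in the mean of the brain populations (25.8% of all genes). Another 3 were called lower (13.8%). A single population could differ in the other direction from these means. *C2*, the partner of C4 in the classical convertase, was at 2.68 to 55.3 CPM in every brain replicate and at most at 0.21 CPM in blood. *Serping1*, the gene for the C1 inhibitor, was at 0 in all 6 blood replicates and at 10.9 to 97.5 CPM in the brain. Also higher were *C1s1* (the C1s protease), *C8g*, *C5ar2* (a second C5a receptor) and *Itgax* (a subunit of complement receptor CR4). So were *Cd59a* (an inhibitor of the membrane attack complex), *Clu* and *Vtn* (soluble inhibitors of that complex) and *Calr* (a C1q-binding chaperone). Means of the brain populations were low for *C1s1* (2.891 to 9.302 CPM), *C8g* (1.206 to 7.084), *Cd59a* (2.159 to 5.108) and *Vtn* (4.779 to 12.81). *C1s1* and *Vtn* were at 0 in some brain replicates. The mean of *C8g* was 1.206 CPM in GFPneg glioma monocytes, 1.749 in Ly6Chigh and 0.09865 in Ly6Clow monocytes. *Itgb2* (the chain shared by CR3 and CR4), *Cr1l* (a regulator of C3 cleavage) and *Fcna* (a ficolin of the lectin pathway) were lower, at -0.65, -0.55 and -2.41, and *Cr1l* changed sign under scaling by the spike-ins (0.12). The means of *Cr1l* and *Fcna* were 223.4 and 56.37 CPM in Ly6Clow but 125.7 and 2.773 CPM in Ly6Chigh monocytes. The means of the brain populations ran from 101.2 to 144 CPM for *Cr1l* and from 0.3569 to 13.3 CPM for *Fcna*. In blood, *Itgax* and *Fcna* were higher in Ly6Clow monocytes (-3.56 and -4.34), and *Fcnb*, a ficolin gene, was called higher in Ly6Chigh monocytes, with 49 counts over 3 replicates against 0. The call of *Fcnb* was lost in 11 and that of *Fcna* in 8 of 15 alternatives. *Cr1l* and *Fcna*, and the genes called only over all brain populations, were named after their values were seen. Against Ly6Chigh monocytes, 5 of the 24 were higher and 0 lower in GFPneg glioma monocytes (11.1% and 2.68% of all genes), 4 and 2 in CCR2high macrophages (12.7% and 5.14%) and 7 and 2 in CCR2low macrophages (14.1% and 6.09%). *C2*, *Serping1*, *Itgax* and *Calr* rose in all 3, although the call of *Calr* in glioma monocytes was lost in 8 of 16 alternatives. Blood monocytes were sorted as low in CD11c, the product of *Itgax*, and brain cells were not sorted on it. The mean of *Itgax* was 21.04 CPM in Ly6Chigh and 247.9 CPM in Ly6Clow monocytes. It was 179.1 CPM in GFPneg glioma monocytes and 300.3 to 496.9 CPM in the other brain populations. The part of the sort in these differences was not tested. None of the 24 was called in the 3 comparisons among GFPneg brain populations. The genes of the terminal components *C7*, *C8a*, *C8b* and *C9*, of C5 (*Hc*), and of factors D and I (*Cfd*, *Cfi*) did not pass the filter, with at most 14 counts in a replicate.

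Over the 28 replicates the genes most like *C1qa* by the correlation of log2 CPM, among 11122 candidates, were *Cd72* and *Cd81* (0.98 each), *Cd63* (0.97), *Ptgs1* and *Stmn1* (0.96 each). Those most like *C3* included *Ikbke* (0.79), *Trappc13* (0.77), *C1rl* and *Aoah* (0.74 each). For *Cfp* they were *S100a1* (0.78), *Mrpl24* and *Lamtor3* (0.76 each), *Eif3m* and *Mrpl46* (0.73 each). The replicates share mice and fall into blood and brain, which sets much of such a correlation for *C1qa*.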

How the data were processed

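The authors deposited whole-number read counts per gene for 30 libraries, without normalization. Per the study's methods, STAR aligned the 75-base read pairs (mm10), duplicates were taken out (Picard 1.8.4 in the submitters' notes) and htseq-count counted in strict intersection mode on a GRCm38.p3 annotation. A strand setting is not given in the sources used here, so reads of overlapping genes on opposite strands may not be told apart. Libraries needed 6000 genes with 5 reads (the authors' rule). The failing library (Ly6Clow, mouse 23) was left out for its repeat, and a pair that passed was summed. Spike-ins (0.284% to 13.3% of counts) and reads without a gene (6.28% to 17.4%) or on several (1.58% to 1.9%) stayed out of library sizes. CPM used TMM-scaled library sizes. Log2 CPM used a prior count of 2.

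Tests used edgeR 4.0.16 in R 4.3.3: filterByExpr, TMM and the robust quasi-likelihood test over all 8 populations, Benjamini-Hochberg adjustment over 11566 genes and a threshold of 0.05. DESeq2 1.42.0 was an alternative. The script was tested on simulated data. The members and lists were chosen with earlier results of these data known. Every listed gene was described, and the likeness rule named 5 genes each for *C1qa*, *C3* and *Cfp*, with some named items not reported here. Replicates are separate animals by number; libraries of the same mouse in different populations deviated together (median r = 0.136 over 86 pairs, against -0.0303 over 256 pairs of different mice), so the blocked fit is given where it changes a call. All 36 pairs of replicates differed by more than counting error (chi-square 7.71 or more for each degree of freedom). Intervals and floors (3 counts, 95% confidence) cover counting error only. Positions and exon lengths are from GENCODE vM21 and promoters from RefSeq.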

Additional observations from a re-analysis of the deposited data

Results flagged for a closer look

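The first library of Ly6Clow monocytes of mouse 23 failed the authors' quality rule and entered no comparison. Of its 1091905 gene counts, 307 were on *C1qa*, 587 on *C1qb*, 322 on *C1qc*, 57 on *C5ar1* and 894 on *Cfp*, each above the limit that a count of 0 allows, while the other 5 complement genes were at 0. These counts stand here because they lie outside every comparison. Dixon's criterion flagged no replicate of the 10 genes in a population of 4, but its outcome depends on the scale and limit taken. *C4b* in GFPneg CCR2high macrophages of mouse 24 was at 61.71 CPM (log2 5.964). The other mice were at 166 to 194.4 CPM (log2 7.382 to 7.608). No test of a difference in GFP effect between cell types passed.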

How the results depend on the processing

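The number of complement genes called stayed within 1.5 times of the main count in 371 of 381 comparisons of a count with an alternative, those that leave out a replicate and the fit with a replicate block (mouse) among them. Many of the 371 compared 0 with 0, since the main fit called none of the 10 genes within the brain. With the block, 7 genes were called for Ly6Chigh against Ly6Clow monocytes. The other 10 counts moved. Of the 6 genes called between the blood populations, 3 were left with spike-in scaling, 3 with a filter of 10 counts in every replicate and 0 with only those populations in the fit. The filter of 10 counts left out *C1qa*, *C1ra* and *Cfb*, so 4, 4 and 5 genes were called in GFPneg glioma monocytes, CCR2high and CCR2low macrophages against Ly6Chigh monocytes. When the fit held just the populations compared, 2 genes were called in GFPneg CCR2high macrophages and 3 in CCR2low macrophages against glioma monocytes. In the average of these differences 3 were called, where DESeq2 called 1 (*C1qc*). Of all genes, no alternative called more than 109, 333 and 529 in these comparisons, against 21, 140 and 275 in the main fit. The averages and the fit without the libraries that stand apart were chosen after seeing the data. Without those libraries *C5ar1* was called in all 3 GFPneg brain populations (adjusted p = 0.0178, 0.0196 and 0.0289). Leaving out Ly6Clow replicate 24 brought *Cfp* (-1.29) and *C4b* (-2.59) past the threshold in blood. Of 1575 comparisons of a called gene with an alternative, 1459 kept direction and call, 115 lost the call and 1 reversed (*Cr1l*, 0.12 with spike-in scaling). Scaling by the spike-ins ended the calls of *C1qa*, *C1qb* and *C1qc* between the blood populations (-1.57, -0.90 and -1.65, or -3.27, -2.59 and -3.34 relative to the median of all genes, 1.69) and those of *C1ra* against Ly6Chigh monocytes (adjusted p = 0.405, 0.128 and 0.176). The same scaling ended the call of *C3* in GFPneg CCR2low macrophages against Ly6Chigh monocytes (-1.41, adjusted p = 0.505). It also ended that of *C4b* in GFPneg glioma monocytes against them (3.55, adjusted p = 0.0561). Depth limits *C1ra* and *Cfb* in blood, which held at most 24 and 39 counts per replicate.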
